A study of Mus musculus with 12 samples.

Results

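Colon tumours from mice lacking Synbindin in the intestinal epithelium (ΔIEC) were compared with adjacent colon of the same genotype, gene by gene and pathway by pathway. The members are the 6 libraries that the labels place in these groups, 3 of ΔIEC tumour and 3 of ΔIEC adjacent colon, out of 12 in the series. The other 6 libraries are the matching tissues of Synbindin flox control mice, and they enter here through the shared estimate of spread and through a closing comparison. All mice were C57BL/6 and belonged to a model of colitis-associated cancer. Both groups compared carry the epithelial deletion, so nothing in the contrast between them measures the deletion itself. The sources used here do not give the promoter that drives the deletion, the agents that induced tumours or the ages of the mice. Libraries are called adjacent 1 to 3 and tumour 1 to 3, by the number in their titles. Adjacent 2 and tumour 2 share a sample code, as do adjacent 3 and tumour 3, whereas adjacent 1 and tumour 1 carry different codes. Whether a code stands for 1 mouse is not stated, and no pairing was used. Sex-linked genes, given below, place both sexes in each group, so each group came from more than 1 mouse. The p-values cover only the spread between libraries, which may be technical in part.

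Synbindin is encoded by Trappc4, a core subunit of the TRAPP complexes, which activate Rab proteins and guide transport vesicles in the secretory pathway. The colon epithelium renews itself from stem cells at the crypt base, which depend on Wnt signals, and its daughters mature into absorptive colonocytes, mucus-secreting goblet cells, hormone-secreting enteroendocrine cells and chemosensory tuft cells as they move up the crypt. In intestinal tumours Wnt signalling is commonly switched on for good, which holds cells in a crypt-like state, and tumours that grow in inflamed colon also carry recruited immune cells and a remodelled matrix.

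The values were taken to be log2(FPKM + 1), where FPKM is the number of fragments per kilobase of transcript, scaled for the size of the library. No read counts were analysed, so the depth of each library is unknown and no counting interval can be given. Correlations across genes ran from 0.928 to 0.951 between the tumours, from 0.912 to 0.946 between the adjacent libraries and from 0.801 to 0.914 between the tissues. Trappc4, on chromosome 9 (GRCm38, 44403698 to 44407600), was at 10.2, 12.6 and 10.4 FPKM in adjacent 1 to 3 and at 12.7, 11.4 and 9.91 in tumour 1 to 3, overlapping ranges that lie below the 16.8 to 20.9 FPKM of the 6 flox libraries. Its tissue difference was 0.03 log2 units (exact two-sided permutation p = 0.9, where 3 against 3 cannot go below 0.1). Xist, a transcript of female cells, was at 154 FPKM in adjacent 2 and 149 in tumour 2, where the Y-linked Ddx3y was at 0. In adjacent 1 and 3 and tumour 1 and 3 Xist was at most 0.0941 FPKM and Ddx3y ran from 11.5 to 14.9. Sex was not part of the fit. The markers of epithelium were high in both tissues: Epcam was at 513, 315 and 424 FPKM in the adjacent libraries and at 369, 369 and 370.5 in the tumours. The series title speaks of scraped epithelium, while the protocol speaks of dissected tumours and adjacent tissue, so how much stroma each library was meant to hold is not certain. Among the 3 ΔIEC adjacent libraries, adjacent 1 stood apart by its low level of stromal genes. Its mean level over 19 fibroblast and matrix genes was 2.44 log2 units, against 4.26 and 3.87 in adjacent 2 and 3, and over 12 smooth muscle genes it was 2.04 against 4.21 and 3.59. The flox adjacent libraries 1 to 3 were at 3.83, 2.56 and 3.03 and at 3.73, 1.72 and 4.19, so flox adjacent 2 was low as well. Across genes adjacent 1 correlated at 0.968 and 0.958 with flox adjacent 2 and 3, and at 0.912 and 0.921 with adjacent 2 and 3. Immunoglobulin genes held 2.80%, 12.7% and 5.73% of the summed FPKM in the adjacent libraries and 0.499%, 0.959% and 20.5% in the tumours.

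A gene was called where limma's two-sided test gave a Benjamini-Hochberg adjusted p below 0.05 over the 16970 genes tested. Tumours differed from adjacent colon at 4981 genes (29.4%), of which 2357 were higher (13.9%) and 2624 lower (15.5%). The median difference over all genes was -0.03. Among the calls, 267 genes were higher and 231 lower by at least 2 log2 units, and 40 and 24 by at least 4. The libraries of the tissues did not overlap for 4876 called genes, 97.9% of the calls. Called or not, 20.8% of all genes were separated upwards and 22.9% downwards. Of the 6 fits that leave out a single ΔIEC library, the one without tumour 1 gave the fewest calls (1364 higher, 1546 lower), and counts fell to 1537 and 1832 without adjacent 1. In bulk tissue, fewer cells of a type and less RNA per cell cannot be told apart. The summed FPKM of protein-coding genes was larger in each adjacent library, from 424000 to 513400, than in any tumour, from 350100 to 378700. When protein-coding genes were brought to a common total, the median over all genes moved from -0.03 to 0.21, and calls became 4320 higher and 1496 lower, 74.3% of calls higher in place of 47.3%. Differences near 0 therefore depend on the scaling, and counts that move by over 1.5 times with this rescaling are given with their lists.

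**Figure D1:**
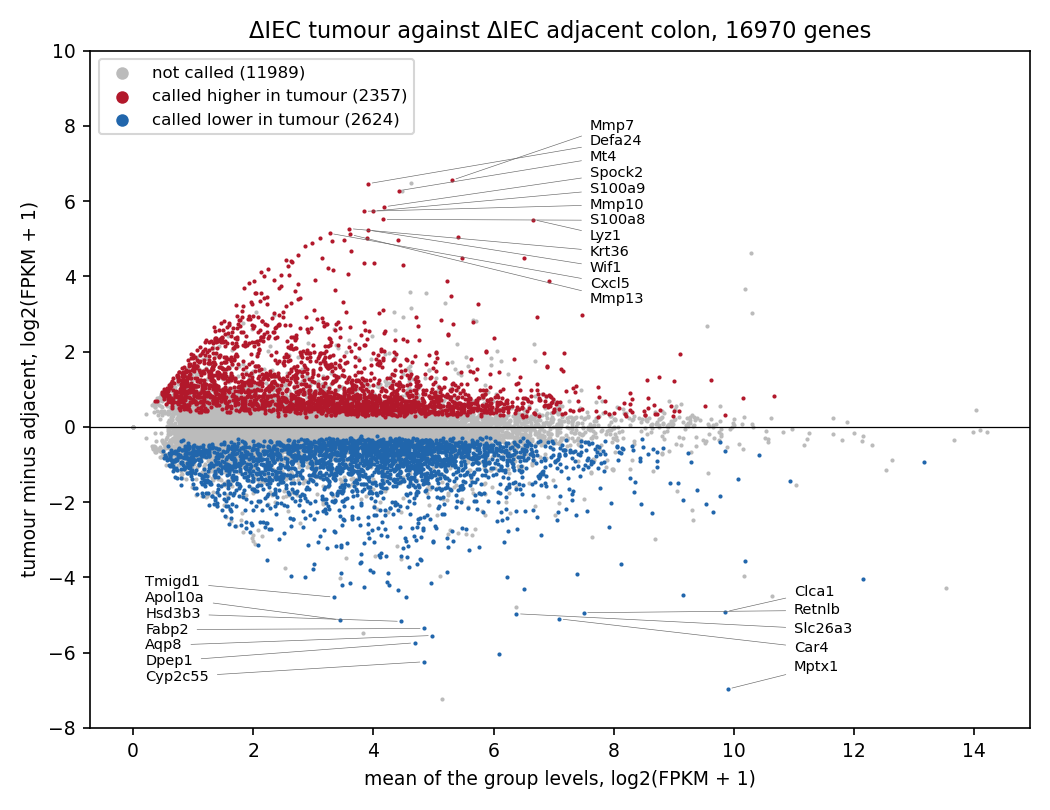
Difference between ΔIEC tumour and ΔIEC adjacent colon (vertical axis, log2(FPKM + 1)) against the mean of the group levels (horizontal axis, log2(FPKM + 1)) for the 16970 genes tested, with 2357 called higher in red and 2624 called lower in blue. The named genes are the 12 largest rises and falls without overlap and with a mean of at least 5 FPKM in the higher group, leaving out predicted and antigen receptor genes.

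The largest rises joined proteases, lysozyme and defensins, calcium-binding proteins of neutrophils and a Wnt inhibitor. Mmp7 (ENSMUSG00000018623), matrilysin, was at 7.3, 1.34 and 1.29 FPKM in adjacent 1 to 3 and at 527, 378 and 185 in tumour 1 to 3 (log2 difference 6.56, SE 0.92, limma adjusted p = 0.00165). Mt4, a metallothionein best known from stratified squamous epithelium, was at 0.853, 0.139 and 1.51 FPKM in adjacent 1 to 3 and at 634, 52.3 and 73 in tumour 1 to 3 (log2 difference 6.28, adjusted p = 0.00625). Tumour 1 exceeded the other tumours for Mt4 by a wide margin. Spock2, a proteoglycan of the extracellular matrix, rose by 5.85 log2 units, from 2.01, 0.677 and 1.13 to 239.9, 71.7 and 117 FPKM. Krt36, a keratin of hair and tongue papillae, was at 0.327, 0.736 and 0.735 FPKM in the adjacent libraries and 207, 31.4 and 33.3 in the tumours (log2 difference 5.27, adjusted p = 0.00203). The 12 largest rises were drawn only from genes without overlap, so their separation was set by the rule. Among them the smallest difference was 5.12 (Mmp13).

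The largest falls were products and enzymes of mature colon epithelium. Mptx1 (ENSMUSG00000026531), a pentraxin secreted in the intestine, was at 11390, 10800 and 1607 FPKM in adjacent 1 to 3 and at 5.22, 280.0 and 56.5 in tumour 1 to 3 (log2 difference -6.97, SE 1.49, limma adjusted p = 0.00797). Its level in adjacent 3 was well below that in adjacent 1 and 2, and all tumours were lower still. Dpep1, a membrane dipeptidase, was at 362, 128 and 102 FPKM in adjacent 1 to 3 and at 1.07, 2.24 and 3.73 in tumour 1 to 3 (log2 difference -5.74, adjusted p = 0.000798). Fabp2, the intestinal fatty acid binding protein, fell from 413, 161 and 42.4 to 0.735, 2.66 and 5.63 FPKM (log2 difference -5.36, adjusted p = 0.00609). Hsd3b3, a steroid dehydrogenase, fell from 218, 99.9 and 73.7 to 0.568, 3.13 and 4.45 FPKM (log2 difference -5.17, adjusted p = 0.000913), and Apol10a, of the apolipoprotein L family, from 122, 38.7 and 34.6 to 0.172, 0.142 and 2.03 FPKM (log2 difference -5.13, adjusted p = 0.00456). These 5 genes were likewise drawn only from genes without overlap, so their separation was set by the rule. Tmigd1, an epithelial adhesion protein, was at 139, 31.1 and 10.9 FPKM in the adjacent libraries and 0.408, 0.362 and 1.29 in the tumours (log2 difference -4.53, adjusted p = 0.0248). Tmigd1 lost its call without adjacent 1, tumour 1 or tumour 2 (limma adjusted p from 0.0654 to 0.0946).

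**Figure D2:**
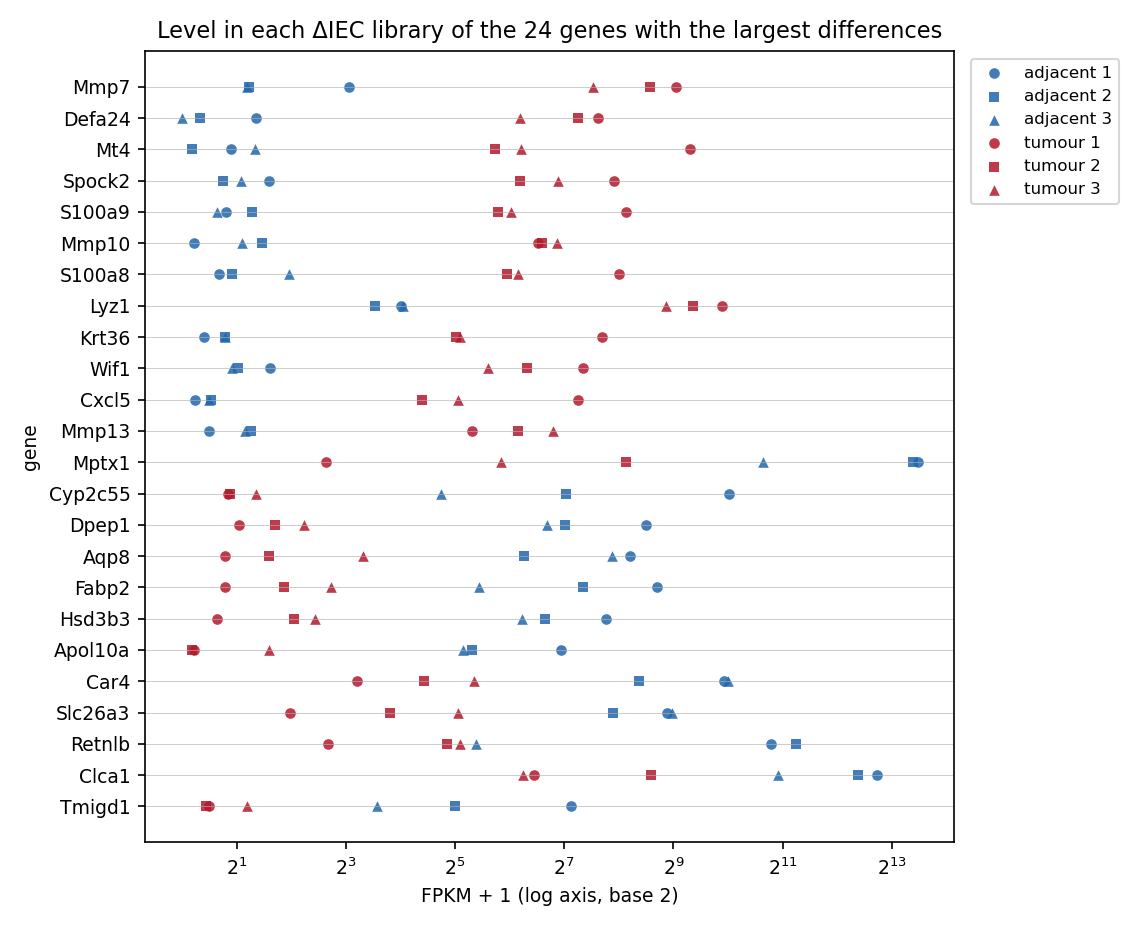
FPKM + 1 (log axis, base 2) of the 24 genes with the largest differences in each of the 6 ΔIEC libraries; blue marks are adjacent 1 to 3 and red marks tumour 1 to 3, with circle, square and triangle for 1, 2 and 3. The 12 upper genes lie to the right in the tumours and the 12 lower genes to the left, and the marks of the tissues come closest for Retnlb, where adjacent 3 is near tumour 3.

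Genes that Wnt signalling switches on, many of them inhibitors that feed back on the pathway, were raised in a larger share of members than any other list. Of 24 listed genes 21 were tested and 19 were called higher, with none lower and a median difference of 2.42, against 13.9% of all genes called higher and a median of -0.03. Wif1, a secreted inhibitor that binds Wnt proteins, was at 2.05, 1.04 and 0.884 FPKM in adjacent 1 to 3 and at 161, 78.5 and 47.6 in tumour 1 to 3 (log2 difference 5.24, SE 0.56, limma adjusted p = 0.000795). Nkd1, an inhibitor inside the cell, was at 1.89, 2.04 and 0.792 FPKM in adjacent 1 to 3 and at 131, 70.4 and 54.9 in tumour 1 to 3 (log2 difference 5.01). Notum (ENSMUSG00000042988, chromosome 11, 120653788 to 120661175, minus strand), an enzyme that removes the lipid Wnt proteins need, was at 0.877, 0.260 and 0.110 FPKM in adjacent 1 to 3 and at 58.9, 47.1 and 23.3 in tumour 1 to 3 (log2 difference 4.9, adjusted p = 0.00127). All tumours lay above all adjacent libraries for Nkd1 and Notum, as the rule for the largest rises required for Wif1. Tumour 3 was the lowest tumour for each of these genes. Prox1, a transcription factor of Wnt-driven intestinal tumours and of lymphatic endothelium, rose from 1.93, 1.15 and 1.15 to 87.8, 62.1 and 38.3 FPKM (log2 difference 4.67, adjusted p = 0.000748). Axin2, Lef1 and Rnf43, standard readouts of the pathway, rose by 2.44, 2.42 and 1.99 log2 units. The summed level of the list was 145.4, 195.5 and 175.6 FPKM in adjacent colon and 1838, 1120 and 795 in the tumours. Leaving out any one ΔIEC library left 18 or 19 genes called higher.

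Crypt base stem cell genes moved in part and in both directions. Of 15 tested, 5 were called higher, 2 lower and 8 neither (median 0.27). The shares were 33.3% higher and 13.3% lower, beside 13.9% and 15.5% of all genes. Lgr5, a Wnt-enhancing receptor of intestinal stem cells, was at 2.32, 1.79 and 1.17 FPKM in adjacent 1 to 3 and at 13.2, 18.4 and 16.2 in tumour 1 to 3 (log2 difference 2.63, SE 0.31, limma adjusted p = 0.000904). Mex3a, an RNA-binding protein of slowly dividing stem cells, was at 0.978, 1.14 and 0.869 FPKM in the adjacent libraries and 12.5, 8.89 and 5.65 in the tumours (log2 difference 2.27), and Smoc2, a matricellular protein, at 4.96, 7.2 and 6.84 FPKM in the adjacent libraries and 18.7, 27.6 and 26.2 in the tumours (log2 difference 1.78). Against these, the water channel Aqp4 fell from 209.8, 174 and 148 to 11.9, 11 and 61.8 FPKM (log2 difference -3.05, adjusted p = 0.00594), and the BMP co-receptor Rgmb from 20.7, 22.2 and 18.2 to 5.7, 10.8 and 12.2 (log2 difference -1.07, adjusted p = 0.0127). Both stayed called without any one library. Ephb2, Ephb3 and Slc12a2, further crypt base genes, had differences of 0.06, 0.12 and 0.24 and were not called.

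A programme of fetal and regenerating gut epithelium was raised in 12 of 17 tested genes, with none lower (median 1.70). Spp1, the secreted phosphoprotein osteopontin, which macrophages also make, was at 0.138, 0.353 and 0.149 FPKM in adjacent 1 to 3 and at 21.2, 43.6 and 6.94 in tumour 1 to 3 (log2 difference 4.04, SE 0.49, limma adjusted p = 0.00105). Cldn4, a claudin, rose from 30, 13.9 and 11.1 to 202, 115 and 75.3 FPKM, and Il33, an alarmin cytokine, from 0.449, 1.51 and 1.14 to 9.26, 19.3 and 8.22 FPKM (log2 differences 2.78 and 2.65). The tumours exceeded every adjacent library for the 3 genes. Between 9 and 12 genes of this list were called when single libraries were left out.

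The matrix-degrading enzymes were raised almost throughout. Of 19 tested metalloproteinases, plasminogen activators and inhibitors 15 were called higher, none lower (median 1.67), and 11 to 16 were called higher without any one library. Mmp10, stromelysin 2, was at 0.158, 1.76 and 1.16 FPKM in adjacent 1 to 3 and at 90.6, 95.7 and 116 in tumour 1 to 3 (log2 difference 5.73, SE 0.63, limma adjusted p = 0.000798). Mmp13, a collagenase, was at 0.415, 1.41 and 1.22 FPKM in adjacent 1 to 3 and at 38.7, 70.7 and 110.1 in tumour 1 to 3 (log2 difference 5.12, adjusted p = 0.00109). Plat, the tissue plasminogen activator, rose from 0.599, 1.33 and 0.742 to 98.9, 25 and 15.4 FPKM (log2 difference 4.23). The tumours agreed closely for Mmp10, whereas Plat was highest in tumour 1. Timp1, the inhibitor, rose as well, by 2.36 log2 units.

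Several of these enzymes lie in 1 cluster on chromosome 9, and the bases just before their starts share a short motif. In the RefSeq promoter table (GRCm38.p6), the AP-1 motif TGANTCA, the binding sequence of Fos and Jun proteins, was searched on both strands in the 250 bases before each start. It was present at 2217 of 32851 starts (6.75%) and for 7.82% of genes. Of the 14 genes of the list with an entry 6 had it (42.9%), and all 6 are in the cluster. Mmp1a is one of them and was not tested, being too low. The stretches around the motif of the other genes are shown because Mmp7, Mmp10 and Mmp13 are 3 of the 12 largest rises; all are on the plus strand, 5′ to 3′, with the motif in capitals.
Mmp7, chr9:7692002-7692058: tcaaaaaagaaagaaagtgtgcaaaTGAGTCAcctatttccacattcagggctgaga
Mmp10, chr9:7502254-7502310: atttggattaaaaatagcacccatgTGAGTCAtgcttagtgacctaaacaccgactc
Mmp13, chr9:7272454-7272510: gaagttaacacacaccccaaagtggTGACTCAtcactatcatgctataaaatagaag
Mmp12, chr9:7347305-7347361: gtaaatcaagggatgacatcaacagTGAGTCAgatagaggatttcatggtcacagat
Mmp3, chr9:7445751-7445807: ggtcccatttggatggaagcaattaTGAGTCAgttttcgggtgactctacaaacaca
The motif begins at -63 relative to the start in Mmp7 and Mmp10, at -35 in Mmp13, at -44 in Mmp12 and at -46 in Mmp3. Mmp12, the macrophage elastase, was at 0.273, 0.433 and 0.543 FPKM in the adjacent libraries and 36.3, 13.8 and 11.2 in the tumours (log2 difference 3.74, adjusted p = 0.0012), and Mmp3, stromelysin 1, at 0, 3.9 and 1.27 FPKM in the adjacent libraries and 4.49, 9.23 and 43.9 in the tumours (log2 difference 2.61, adjusted p = 0.0423). A match is a description of the letters and not evidence of binding. For the Wnt list the TCF/LEF motif ATCAAAG, searched on both strands, was found for 2 of 14 genes with an entry, Sp5 and Tnfrsf19, 14.3% of them, against 3.72% of all genes in the table.

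Laminins and other parts of the basement membrane were higher in 7 of 14 tested genes, with none lower (median 1.27). Lama5, a laminin chain, was at 2.53, 4.52 and 3.83 FPKM in adjacent 1 to 3 and at 17.3, 18.7 and 16.7 in tumour 1 to 3 (log2 difference 2.03, SE 0.27, limma adjusted p = 0.00127), with every tumour above every adjacent library. Lama3 (log2 difference 1.9) changed its transcript make-up too: the transcript Lama3-202 held 66.4%, 65.7% and 72.4% of its FPKM in adjacent colon and 94.0%, 97.0% and 96.3% in the tumours. This transcript was picked because its shares did not overlap between the tissues, so their separation is no further result. Lama3 lost its call without tumour 1 (limma adjusted p = 0.0605). The count of this list was 4 without adjacent 1, adjacent 3, tumour 2 or tumour 3, and 3 without tumour 1. Fibroblast and matrix genes were less stable: 4 of 19 were called higher (median 1.16), Fn1, Col12a1, Col5a2 and Pdgfra. That is 21.1%, beside 13.9% of all genes. Fibronectin (Fn1) was at 14.3, 40.4 and 31.7 FPKM in adjacent 1 to 3 and at 67.2, 130.3 and 148 in tumour 1 to 3 (log2 difference 2.0, SE 0.50, limma adjusted p = 0.0144), with adjacent 1 the lowest. The count was 0 without adjacent 1, 9 without adjacent 2, 2 without tumour 1 or tumour 2 and 1 without tumour 3, and 7 after protein-coding rescaling. Fn1 lost its call without adjacent 1 (limma adjusted p = 0.0523). The low stromal level of adjacent 1 was itself read in part from these same genes, and its part in the result was not tested. Their summed level was 117, 533 and 427 FPKM in adjacent 1 to 3 and 522, 823 and 1133 in tumour 1 to 3, with all 19 members above 0. No smooth muscle gene of 12 was called (median 0.08); the smallest p was that of Casq2 (adjusted p = 0.444). Of 14 endothelial genes only Prox1, counted already among the Wnt targets, was called (7.1% higher, beside 13.9% of all genes). In this list 4 were called without adjacent 2 and 3 after rescaling. Among enteric nerve and glia genes 6 of 14 were tested and 2 were called higher (1 without adjacent 1 or adjacent 3), with 1 lower without tumour 3. The share higher was 33.3% of those tested, beside 13.9% of all genes. Ret, a receptor kinase of enteric neurons, was at 0.765, 0.965 and 0.516 FPKM in the adjacent libraries and 4.89, 1.57 and 2.07 in the tumours (log2 difference 1.05, adjusted p = 0.0324). Ret lost its call without adjacent 1, adjacent 3 or tumour 1 (limma adjusted p from 0.0726 to 0.106). The glial markers Sox10, S100b and Gfap were below the level tested. None of 3 adipocyte and mesothelial genes tested was called.

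Neutrophil genes were raised in 13 of 15 tested members, with none lower (median 2.31). S100a9 and S100a8, the paired subunits of calprotectin, were among the largest rises. S100a9 was at 0.744, 1.43 and 0.562 FPKM in adjacent 1 to 3 and at 279, 54.4 and 63.8 in tumour 1 to 3 (log2 difference 5.74, SE 0.54, limma adjusted p = 0.000525) and S100a8 at 0.606, 0.877 and 2.9 FPKM in adjacent 1 to 3 and at 255, 61.1 and 70.1 in tumour 1 to 3 (log2 difference 5.52, adjusted p = 0.000748). Csf3r, the receptor for the growth factor of granulocytes, was at 0.335, 0.743 and 1.77 FPKM in the adjacent libraries and 24.6, 5.71 and 9.78 in the tumours (log2 difference 2.72). The tumours lay above all adjacent libraries for Csf3r, as the rule for the largest rises required for S100a9 and S100a8. Tumour 1 was the highest for each of them, as it was for the mean level of the list (4.41, 3.22 and 3.27 log2 units in tumour 1 to 3 and 0.725 to 1.34 in adjacent colon). Ly6g, a defining surface marker of mouse neutrophils, was at 38.4, 35.1 and 162 FPKM in the adjacent libraries and 80.4, 65.5 and 111 in the tumours and was not called (log2 difference 0.46, adjusted p = 0.786). The granule genes Ngp, Camp, Elane and Mpo were too low to be tested. The summed level of the list was 43.8, 49.3 and 178 FPKM in adjacent 1 to 3 and 914, 324 and 377 in tumour 1 to 3, and 19 of its 20 members were above 0. Between 12 and 13 members were called without any one library.

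Chemokines that attract neutrophils rose, and 9 of 23 tested chemokines were called higher and 3 lower (median 0.80). The shares were 39.1% and 13.0%, beside 13.9% and 15.5% of all genes. Cxcl5 was at 0.181, 0.438 and 0.412 FPKM in adjacent 1 to 3 and at 152, 20.1 and 32.1 in tumour 1 to 3 (log2 difference 5.15, SE 0.68, limma adjusted p = 0.00141), Cxcl1 was at 0.0810, 0.188 and 0.705 FPKM in the adjacent libraries and 37.9, 13.3 and 33.9 in the tumours (log2 difference 4.37) and Cxcl2 at 0.132, 0.156 and 0.217 FPKM in the adjacent libraries and 67.3, 12.4 and 15.3 in the tumours (log2 difference 4.4). All share a receptor on neutrophils, Cxcr2, which rose by 2.34 log2 units. The ranges were separate for Cxcl1 and Cxcl2, as the rule for the largest rises required for Cxcl5. The neutrophil genes above moved with the 3 ligands, and the part of those genes was not tested. Ccl28, which draws antibody-secreting cells to mucosa, fell from 39.4, 23.3 and 64.3 to 2.57, 9.07 and 16.9 FPKM (log2 difference -2.21, adjusted p = 0.0174), Cx3cl1, a membrane-bound chemokine, by 1.29 log2 units and Ccl6 by 1.18. Ccl28 lost its call without adjacent 1, adjacent 3 or tumour 1 (limma adjusted p from 0.0518 to 0.0588).

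Inflammatory cytokines were called higher in 9 of 11 tested genes, with none lower (median 1.60), and in 6 to 9 without any one library. Il1b, the central cytokine of the inflammasome, was at 0.795, 2.12 and 4.19 FPKM in adjacent 1 to 3 and at 141, 32.7 and 52.8 in tumour 1 to 3 (log2 difference 4.37, SE 0.61, limma adjusted p = 0.00165). Il11, a gp130 cytokine made by stromal cells, was at 0, 0.293 and 0.232 FPKM in the adjacent libraries and 1.92, 7.41 and 10.7 in the tumours (log2 difference 2.5), and Il1a, the membrane-associated partner of Il1b, at 0.204, 0.257 and 0.559 FPKM in the adjacent libraries and 6.88, 2.81 and 5.75 in the tumours (log2 difference 2.14). Tumour and adjacent libraries were fully separated for these cytokines, and tumour 1 was the highest for Il1b but the lowest for Il11. The neutrophil genes moved with Il1b, and their part was not tested. The remaining cytokines called were Il33, Il23a, Tnf, Il1rn, Osm and Lif, with differences from 0.89 to 2.65. The other 9 listed cytokines, Il6, Il10, Il17a, Il22 and Ifng among them, were below the level tested.

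Antimicrobial and acute phase genes of the epithelium did not move together: 5 of 19 tested were called higher, 1 lower (median 0.04). These are shares of 26.3% and 5.3%, beside 13.9% and 15.5% of all genes. Saa3, a serum amyloid A protein of inflamed tissue, was at 13.7, 3.26 and 3.69 FPKM in adjacent 1 to 3 and at 156, 242 and 279.6 in tumour 1 to 3 (log2 difference 5.05, SE 0.56, limma adjusted p = 0.000801). Hp, haptoglobin, was at 0.216, 0.224 and 1.05 FPKM in the adjacent libraries and 32.5, 39.9 and 74.3 in the tumours (log2 difference 5.01) and Lcn2, the iron-siderophore binder lipocalin 2, which neutrophils also carry, at 0.916, 2.87 and 4.89 FPKM in the adjacent libraries and 166, 95.5 and 82.8 in the tumours (log2 difference 4.97). Pigr, the receptor that carries IgA through epithelium, fell from 1588, 1103 and 1777 to 268, 314 and 532 FPKM (log2 difference -2.04, SE 0.26, limma adjusted p = 0.00118). There was no overlap between tissues for these 4 genes. Reg3g, Saa1 and Duox2 were not called, with differences of 2.85, -1.71 and -1.09. The count of genes called lower was 4 without adjacent 2.

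Genes of Paneth cells, the defensin-secreting cells of small intestinal crypts that normal mouse colon lacks, were called higher in 11 of 14 tested members (median 3.04), and in 10 or 11 without any one library. Lyz1 (ENSMUSG00000069515), the Paneth cell lysozyme, was at 15.1, 10.5 and 15.5 FPKM in adjacent 1 to 3 and at 947, 657 and 467 in tumour 1 to 3 (log2 difference 5.51, SE 1.11, limma adjusted p = 0.00617). Defa24, an α-defensin, was at 1.55, 0.252 and 0 FPKM in the adjacent libraries and 196, 152 and 72 in the tumours (log2 difference 6.46), and Defa22 was listed at 0 in all adjacent libraries and at 24.1, 15.2 and 6.77 FPKM in the tumours. Defensin genes have near-identical copies, so the split of reads between them is uncertain, while the direction was shared by the 8 defensins tested. Lyz2, the lysozyme of macrophages, had a difference of 0.49 and was not called (adjusted p = 0.612). Levels did not overlap for Defa22, as the rule for the largest rises required for Lyz1 and Defa24. Tumour 3 was the lowest tumour for each of them. The RNA of Pla2g2a and Habp2, further genes of this list, rose by 3.28 and 2.85 log2 units.

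Macrophage and monocyte genes differed less than neutrophil genes. The median of mast cell genes, 2.33, was close to the 2.31 of neutrophil genes. Of 18 macrophage and monocyte genes 5 were called higher, none lower (median 0.81), a share of 27.8% beside 13.9% of all genes. Arg1, the arginase of alternatively activated and suppressive myeloid cells, was at 0.895, 0.669 and 0.423 FPKM in adjacent 1 to 3 and at 47.1, 12.8 and 17.7 in tumour 1 to 3 (log2 difference 3.81, SE 0.42, limma adjusted p = 0.000795), and the integrin Itgam was at 0.897, 3.82 and 3.94 FPKM in the adjacent libraries and 13.8, 7.29 and 9.56 in the tumours (log2 difference 1.62). Csf1r, Adgre1 and C1qa, defining macrophage markers, had differences of 0.70, 0.17 and 0.81 and were not called. The count was 3 without adjacent 1, tumour 1 or tumour 3. Mast cell genes were called higher in 5 of 10 and lower in 1 (median 2.33), shares of 50% and 10% beside 13.9% and 15.5% of all genes. Cma1, a chymase, was at 0.479, 0.195 and 1.49 FPKM in adjacent 1 to 3 and at 11.9, 24 and 6.3 in tumour 1 to 3 (log2 difference 3.02, adjusted p = 0.00748), and Hdc, which makes histamine, was at 0.234, 0.278 and 0.265 FPKM in the adjacent libraries and 20.1, 5.0 and 6.36 in the tumours (log2 difference 2.96). Kit, a receptor of mast cells that other colon cells also carry, fell from 24.1, 16.6 and 10.5 to 2.64, 6.32 and 4.02 FPKM (log2 difference -1.75, adjusted p = 0.00863). The count of mast cell genes called higher was 3 without tumour 1 or tumour 2 and 7 after rescaling, and the summed level was highest in tumour 2 (896 FPKM, against 169.6 and 101.2 in the other tumours).

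Lymphoid genes gave no stable call. None of 14 T cell genes was called (median -0.20; 1 was called lower without adjacent 1), and the smallest p was that of Cd3e (3.5, 3.15 and 5.17 FPKM in the adjacent libraries and 1.56, 2.15 and 1.98 in the tumours, adjusted p = 0.116). Among B and plasma cell genes 15 of 17 were below 0 (median -1.16), but only Xbp1 was called lower and only Sdc1, which epithelium also makes, higher (none without adjacent 2, adjacent 3, tumour 1 or tumour 2). Each is 5.9% of the list, beside 15.5% lower and 13.9% higher over all genes. Their mean level was 1.94, 4.15 and 4.64 log2 units in adjacent 1 to 3 and 1.79, 2.80 and 3.10 in tumour 1 to 3, so adjacent 1 lay with the tumours. Without adjacent 1 limma called 13 of the 17 lower. Without adjacent 2, tumour 1 or tumour 2 it called none lower, and without tumour 3 it called 3; after rescaling none was lower. Of 10 genes of antigen presentation on MHC class II none was called, and 2 were called lower without adjacent 1. None of 22 interferon response genes was called, with 11 on each side of 0, and rescaling gave 1 called higher. Iigp1, a GTPase induced by interferon, had the smallest p of these (9.23, 2.99 and 15.9 FPKM in the adjacent libraries and 27.8, 29.5 and 46.4 in the tumours, adjusted p = 0.0964, and 0.0452 after rescaling).

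Absorptive colonocyte genes fell in 15 of 24 tested members, against 15.5% of all genes, and 1 rose (median -1.93). Aqp8, a water channel of surface colonocytes, was at 296, 75.7 and 234 FPKM in adjacent 1 to 3 and at 0.738, 2.03 and 9.0 in tumour 1 to 3 (log2 difference -5.55, SE 0.83, limma adjusted p = 0.00197). Car4, a membrane-bound carbonic anhydrase, was at 975, 328 and 1019 FPKM in adjacent 1 to 3 and at 8.2, 20.6 and 39.9 in tumour 1 to 3 (log2 difference -5.1, adjusted p = 0.000913). Slc26a3, the chloride-bicarbonate exchanger, fell from 473, 237 and 503 to 2.97, 13 and 32.4 FPKM (log2 difference -4.97), and Guca2a, the peptide guanylin, from 1222, 539 and 308 to 30.7, 32.6 and 56 FPKM (log2 difference -3.9). Every tumour was below every adjacent library for Guca2a, as the rule for the largest falls required for Aqp8, Car4 and Slc26a3. Tumour 3 kept the highest level of the tumours for each of the 4 genes. Clca4b, a member of the calcium-activated chloride channel regulator family, went the other way, from 11.3, 6.92 and 104 to 452, 171 and 421 FPKM (log2 difference 3.88, adjusted p = 0.0228), while its neighbour Clca4a fell by 1.48 log2 units. Clca4b lost its call without adjacent 1, adjacent 2, tumour 1 or tumour 3 (limma adjusted p from 0.0561 to 0.0821). The count called lower ran from 10 to 15 without single libraries, and 2 genes were called higher without adjacent 3.

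Goblet cell and mucus genes fell in 13 of 16 tested members with none higher (median -2.29; 10 to 15 without any one library). Muc2 (ENSMUSG00000025515, chromosome 7, 141690340 to 141754693, plus strand), the gel-forming mucin of the colon, was at 30840, 14790 and 6927 FPKM in adjacent 1 to 3 and at 311, 1016 and 2225 in tumour 1 to 3 (log2 difference -4.04, SE 0.80, limma adjusted p = 0.00569). Clca1, a protein secreted into the mucus, was at 6813, 5353 and 1938 FPKM in the adjacent libraries and 86.5, 385 and 75.4 in the tumours (log2 difference -4.91). Fcgbp, another mucus protein, was at 4888, 1904 and 1289 FPKM in the adjacent libraries and 45.8, 171 and 139 in the tumours (log2 difference -4.46). Every tumour lay below every adjacent library for Muc2 and Fcgbp, as the rule for the largest falls required for Clca1. Retnlb, a goblet cell resistin, was at 1770, 2436 and 40.7 FPKM in the adjacent libraries and 5.36, 27.8 and 33 in the tumours (log2 difference -4.94, adjusted p = 0.0265), with adjacent 3 far below the other adjacent libraries. Retnlb lost its call without adjacent 1, adjacent 2, tumour 1 or tumour 2 (limma adjusted p from 0.0503 to 0.0988). Atoh1 and Spdef, transcription factors of the secretory lineage, fell by 2.53 and 2.66 log2 units.

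Hormone and granule genes of enteroendocrine cells fell in 10 of 12 tested members with none higher (median -1.85). Gcg, which encodes glucagon-like peptides, was at 42.9, 47.2 and 37.9 FPKM in adjacent 1 to 3 and at 0.582, 2.52 and 6.88 in tumour 1 to 3 (log2 difference -3.62, SE 0.54, limma adjusted p = 0.00184). Chga, a granin of secretory granules, was at 54.2, 17.9 and 20.7 FPKM in the adjacent libraries and 0.505, 2.66 and 5.11 in the tumours (log2 difference -3.13), and its relative Chgb at 68, 29.6 and 31.6 FPKM in the adjacent libraries and 1.27, 3.85 and 9.55 in the tumours (log2 difference -3.07). Tumour 1 was the lowest library for these 3 genes. Without tumour 1 the count fell to 5. Insl5, a hormone of the distal colon, was at 38.8, 56.2 and 97.8 FPKM in the adjacent libraries and 0.752, 7.8 and 10.4 in the tumours (log2 difference -3.44, adjusted p = 0.0373). Insl5 lost its call without adjacent 1, adjacent 2, adjacent 3, tumour 1 or tumour 2 (limma adjusted p from 0.0595 to 0.135). Tuft cell genes divided, with 5 of 11 called lower and 1 higher (median -0.82, with 2 higher without adjacent 2). The shares were 45.45% lower and 9.1% higher, beside 15.5% and 13.9% of all genes. Dclk1, a tuft cell kinase, was at 26.4, 21.4 and 9.85 FPKM in adjacent 1 to 3 and at 1.05, 5.04 and 3.68 in tumour 1 to 3 (log2 difference -2.28, adjusted p = 0.0033), and the taste channel Trpm5 was at 8.06, 4.73 and 2.45 FPKM in the adjacent libraries and 0.619, 1.11 and 0.383 in the tumours (log2 difference -1.75). Avil, an actin-binding protein used as a tuft cell marker, rose from 7.21, 4.21 and 3.04 to 49.2, 37 and 18.6 FPKM (log2 difference 2.58, adjusted p = 0.00181).

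Transcription factors that define intestinal epithelium fell in 9 of 17 tested members with none higher (median -1.36; 8 to 10 without any one library). Cdx2 (ENSMUSG00000029646, chromosome 5, 147300805 to 147307270, minus strand), the homeobox factor that specifies intestine, was at 73.2, 49 and 23.6 FPKM in adjacent 1 to 3 and at 2.0, 2.29 and 4.42 in tumour 1 to 3 (log2 difference -3.58, SE 0.60, limma adjusted p = 0.00293). Vdr, the vitamin D receptor, was at 134, 62.4 and 102 FPKM in adjacent 1 to 3 and at 5.89, 10.9 and 21.6 in tumour 1 to 3 (log2 difference -2.96, adjusted p = 0.00132). Klf4, which promotes maturation of surface cells, was at 273, 141 and 204 FPKM in the adjacent libraries and 27.7, 34 and 81.2 in the tumours (log2 difference -2.2). No library of one tissue reached the range of the other for the 3 genes. Hnf4a and Hnf4g, nuclear receptors of enterocytes, fell by 1.36 and 1.37 log2 units, whereas Klf5, Gata6, Foxa2 and Hes1 were not called (-0.14, -0.35, -0.57 and 0.05). The general epithelial list moved less, with 4 of 13 genes called lower (median -0.35), 30.8% beside 15.5% of all genes. The count was 2 after protein-coding rescaling or without tumour 1 or tumour 2. The summed level of this list was 9664, 7099 and 8477 FPKM in adjacent 1 to 3 and 6530, 5974 and 7284 in tumour 1 to 3, with all 13 members above 0. Vil1, villin of the brush border, fell by 1.06 log2 units, while Epcam and Cdh1 were not called (-0.15 and -0.26). The part of a lower share of epithelial RNA in the losses above was not tested.

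**Figure D3:**
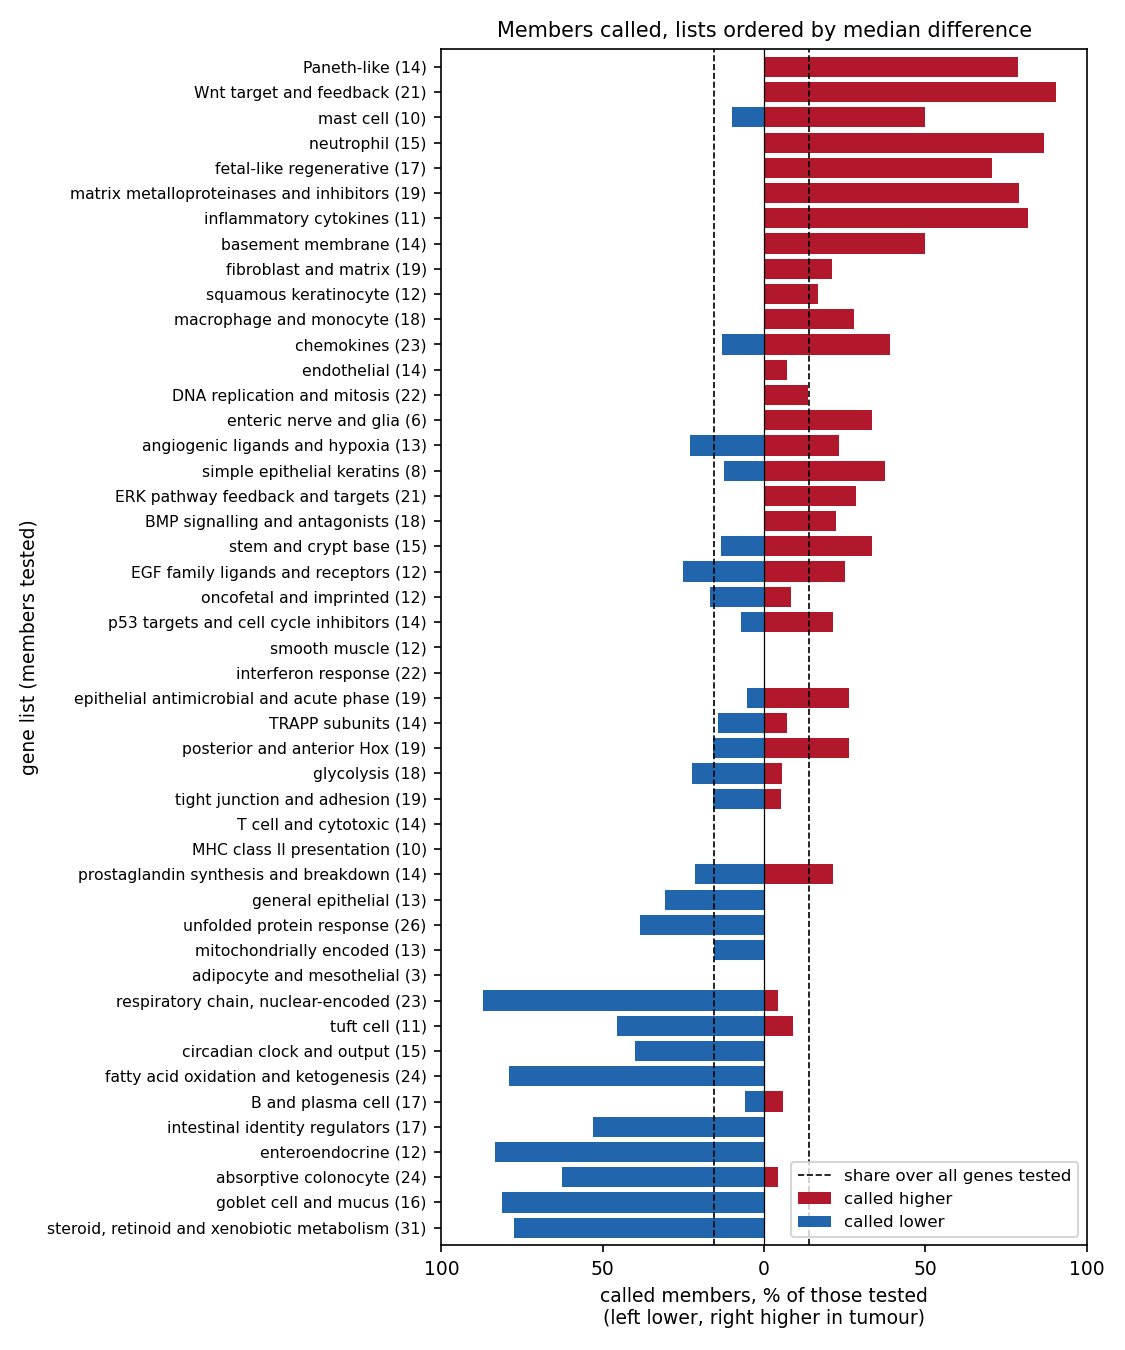
Share of the tested members of each gene list called higher (red, right) or lower (blue, left) in ΔIEC tumour, in percent, with the number tested in brackets and lists ordered by their median difference. Dashed lines mark the shares over all genes tested (13.9% higher, 15.5% lower); Wnt targets, neutrophil genes and inflammatory cytokines reach furthest to the right, and the respiratory chain furthest to the left.

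Metabolic genes of mature colonocytes fell together. Enzymes of steroid, retinoid and xenobiotic metabolism were called lower in 24 of 31 tested members with none higher (median -2.57; 23 to 25 without any one library; 1 higher without adjacent 1 or after rescaling). Cyp2c55, a cytochrome P450 of the colon, was at 1038, 129.8 and 25.9 FPKM in adjacent 1 to 3 and at 0.789, 0.836 and 1.55 in tumour 1 to 3 (log2 difference -6.24, SE 1.33, limma adjusted p = 0.00787). Its adjacent levels were spread widely, and all tumours lay below them, as the rule for the largest falls required. Cyp4f14, which oxidises fatty acids and leukotrienes, was at 129, 52.5 and 59.8 FPKM in the adjacent libraries and 1.15, 4.0 and 5.35 in the tumours (log2 difference -4.2). Ces2c, a carboxylesterase, was at 240.4, 45 and 123 FPKM in the adjacent libraries and 2.67, 4.81 and 10.7 in the tumours (log2 difference -4.14), and Sult1a1, a sulfotransferase, at 187, 93.9 and 115 FPKM in the adjacent libraries and 3.12, 8.7 and 16.5 in the tumours (log2 difference -3.85). Tumour 1 had the lowest level for these 3 genes and tumour 3 the highest of the tumours. Nr1i2, the xenobiotic sensor PXR, fell by 1.15 log2 units.

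Colonocytes draw much of their energy from butyrate made by bacteria. Genes of its uptake and of fatty acid oxidation fell in 19 of 24 tested members with none higher (median -1.05; 13 to 19 without any one library). Slc5a8, a sodium-coupled butyrate transporter, was at 84.7, 50.2 and 68.8 FPKM in adjacent 1 to 3 and at 2.79, 7.67 and 19.7 in tumour 1 to 3 (log2 difference -2.94, SE 0.58, limma adjusted p = 0.00577). Acsf2, an acyl-CoA synthetase, was at 116, 50.6 and 31.5 FPKM in the adjacent libraries and 4.4, 6.4 and 9.66 in the tumours (log2 difference -2.95), and Acads, the short-chain acyl-CoA dehydrogenase, at 93.8, 58.3 and 40.6 FPKM in the adjacent libraries and 19, 19.7 and 22.4 in the tumours (log2 difference -1.53). Ppara, the nuclear receptor that induces such genes, was at 10.1, 4.93 and 3.11 FPKM in the adjacent libraries and 0.259, 0.694 and 0.617 in the tumours (log2 difference -2.1). The ranges were separate for these 4 genes. Ppara lost its call without adjacent 1 or tumour 1 (limma adjusted p from 0.0619 to 0.0623).

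Nuclear genes of the respiratory chain fell by less but almost throughout: 20 of 23 were called lower and 1 higher (median -0.62; 17 to 19 lower without any one library). After protein-coding rescaling 14 were called lower and the median was -0.33, where that of all genes was 0.21. Sdhb, of complex II, was at 176, 136 and 126 FPKM in adjacent 1 to 3 and at 70.8, 69.4 and 79.3 in tumour 1 to 3 (log2 difference -0.97, SE 0.19, limma adjusted p = 0.00485), and Uqcrc1, of complex III, was at 179.9, 145 and 143 FPKM in the adjacent libraries and 67.9, 81.5 and 106 in the tumours (log2 difference -0.88). Every tumour lay below every adjacent library for both. Ndufa4, a small subunit first placed in complex I and later in complex IV, rose from 84.3, 103 and 83.4 to 204, 161 and 126 FPKM (log2 difference 0.83, adjusted p = 0.0131). Ndufa4 lost its call without tumour 1 (limma adjusted p = 0.0529). Of 13 genes of the mitochondrial genome 2 were called lower, mt-Co1 and mt-Nd4 (median -0.47), a share of 15.4% that is close to the 15.5% of all genes; the count was 0 without adjacent 1, tumour 2 or tumour 3, 6 without adjacent 2 and 1 without adjacent 3 or after rescaling. Glycolysis genes were called lower in 4 of 18 and higher in 1 (median -0.12), shares of 22.2% and 5.6%. Over all genes 15.5% were lower and 13.9% higher. The gene that rose was Slc16a3, a lactate exporter (8.32, 3.55 and 4.91 FPKM in the adjacent libraries and 54.2, 24.8 and 14.9 in the tumours, log2 difference 2.17, adjusted p = 0.0103). Hk1, a hexokinase, fell from 83.3, 68.4 and 86.9 to 29.9, 31.4 and 60.2 FPKM (log2 difference -1.02). The count lower was 1 without tumour 1 or tumour 2 and 2 without adjacent 1 or adjacent 3, and rescaling gave 5 higher and 2 lower.

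Of 14 tested genes of prostaglandin synthesis and breakdown 3 were called higher and 3 lower (median -0.32). That is 21.4% each way, beside 13.9% higher and 15.5% lower over all genes. The count lower was 1 without adjacent 3 or tumour 1 and 2 after rescaling. Ptgs2, the inducible cyclooxygenase COX-2, was at 0.299, 2.69 and 2.02 FPKM in adjacent 1 to 3 and at 11, 15.6 and 30.4 in tumour 1 to 3 (log2 difference 2.92, SE 0.44, limma adjusted p = 0.00199), and Ptges, the downstream PGE2 synthase, was at 1.72, 4.74 and 3.95 FPKM in the adjacent libraries and 11.4, 7.66 and 11.2 in the tumours (log2 difference 1.36). Hpgd, the enzyme that breaks prostaglandins down, fell from 175, 58.3 and 74 to 12.2, 30.2 and 20.5 FPKM (log2 difference -2.15, adjusted p = 0.00781), and Slco2a1, the transporter that takes them up for breakdown, from 29.1, 9.97 and 25.3 to 2.57, 5.89 and 9.25 FPKM (log2 difference -1.7). Slco2a1 lost its call without adjacent 1, adjacent 3 or tumour 1 (limma adjusted p from 0.0587 to 0.0692). Tumour and adjacent libraries were fully separated for the 4 genes.

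Targets and feedback inhibitors of ERK signalling were called higher in 6 of 21 tested genes with none lower (median 0.32). That is 28.6% higher, beside 13.9% of all genes. Without any one library 6 or 7 were called higher, and 1 was called lower without tumour 3. After rescaling 11 were called higher. Ier3, an immediate early gene, was at 6.94, 7.08 and 5.4 FPKM in adjacent 1 to 3 and at 62.4, 38.6 and 31.4 in tumour 1 to 3 (log2 difference 2.54, SE 0.29, limma adjusted p = 0.000801). Dusp4, a phosphatase that switches ERK off in the nucleus, was at 3.54, 3.31 and 3.1 FPKM in the adjacent libraries and 23.5, 16.4 and 10 in the tumours (log2 difference 1.96), and Phlda1 at 17, 17.7 and 14.8 FPKM in the adjacent libraries and 61.6, 76.2 and 49.5 in the tumours (log2 difference 1.84). Myc, also a Wnt target, was at 12.3, 12.2 and 11.2 FPKM in the adjacent libraries and 31.1, 36.7 and 21.9 in the tumours (log2 difference 1.23). The 4 genes were separated between the tissues, with similar levels over the adjacent libraries. Dusp6, Spry2 and Spry4, further feedback inhibitors, were not called (0.32, -0.22 and 0.35).

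Of 12 EGF family genes the ligands Nrg1, Ereg and Btc were called higher and the receptors Erbb2 and Erbb3 and the inhibitor Lrig3 lower. That is 25% each way, beside 13.9% higher and 15.5% lower over all genes. Nrg1, neuregulin 1, was at 2.74, 21.2 and 7.03 FPKM in the adjacent libraries and 19.6, 46.5 and 40.7 in the tumours (log2 difference 1.98, adjusted p = 0.022) and Ereg, epiregulin, at 0.736, 3.65 and 1.8 FPKM in the adjacent libraries and 3.51, 10.3 and 14.3 in the tumours (log2 difference 1.71, adjusted p = 0.0167); for both, adjacent 2 was above tumour 1. Nrg1 lost its call without adjacent 1, adjacent 3, tumour 2 or tumour 3 (limma adjusted p from 0.0577 to 0.0721). Ereg lost its call without adjacent 1, tumour 2 or tumour 3 (limma adjusted p from 0.0505 to 0.0601). Btc, betacellulin, was at 2.91, 2.1 and 2.32 FPKM in the adjacent libraries and 5.36, 8.17 and 5.4 in the tumours (log2 difference 1.07), and Lrig3 at 23.8, 18 and 19.5 FPKM in the adjacent libraries and 2.26, 4.48 and 9.81 in the tumours (log2 difference -1.88). Erbb2 and Erbb3 fell by 1.03 and 1.02 log2 units. Errfi1, an inhibitor that binds activated EGF receptors, was not called as a gene (-0.25), but the transcript Errfi1-201 held 26.5%, 22.8% and 19% of its FPKM in adjacent colon and 78.9%, 56.5% and 59.9% in the tumours, a description chosen after its values were seen. Without adjacent 1, tumour 2 or tumour 3 only 1 ligand was called higher, and without adjacent 1, adjacent 3, tumour 1 or tumour 2 only 1 gene was called lower; rescaling gave 6 higher and 2 lower. Among BMP and activin genes 4 of 18 were called higher and none lower (median 0.28). That is 22.2% higher, beside 13.9% of all genes. The count lower was 1 without adjacent 2. After rescaling 6 were called higher, beside 4320 of all 16970 genes. Inhba, the activin A subunit, was at 0.181, 1.44 and 1.29 FPKM in adjacent 1 to 3 and at 17.1, 13 and 19.4 in tumour 1 to 3 (log2 difference 3.2, SE 0.38, limma adjusted p = 0.000913), Bmp7 was at 1.28, 3.38 and 1.81 FPKM in the adjacent libraries and 9.32, 11.9 and 9.02 in the tumours (log2 difference 1.86) and Id2, a target of BMP signals, at 13.2, 13.3 and 9.24 FPKM in the adjacent libraries and 41.2, 48 and 21.5 in the tumours (log2 difference 1.5). There was no overlap between tissues for Btc, Lrig3 or these 3 genes.

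Hox genes, which record position along the gut, split by cluster. The 5 genes from Hoxd9 to Hoxd13 were called higher, and no Hoxa or Hoxb gene was, though Hoxa9 (0.66) was called higher after rescaling. Hoxd13 (ENSMUSG00000001819, chromosome 2, 74668310 to 74671599, plus strand) was at 0.0529, 0.138 and 2.67 FPKM in adjacent 1 to 3 and at 42.5, 52.9 and 52.3 in tumour 1 to 3 (log2 difference 4.93, SE 1.11, limma adjusted p = 0.00975), with adjacent 3 above the other adjacent libraries. Hoxd11 was at 0.486, 0.257 and 0.314 FPKM in adjacent 1 to 3 and at 14.4, 11.5 and 12.6 in tumour 1 to 3 (log2 difference 3.35, adjusted p = 0.00262), and Hoxd10 was at 0.373, 0.229 and 0.251 FPKM in the adjacent libraries and 9.43, 7.16 and 8.05 in the tumours (log2 difference 2.84). Hoxd12 was nearly absent from ΔIEC adjacent colon, at 0.0259, 0.0122 and 0.0581 FPKM, and at 9.7, 4.96 and 4.42 FPKM in the tumours (log2 difference 2.77). Flox adjacent colon was more uneven, with a mean of 10.4 FPKM (SD 17.9) for Hoxd13 and 2.41 (SD 3.51) for Hoxd11. The flox tumour means were 62.9 and 15.8 FPKM. Hoxd9, which lies outside the rule for named genes, had a difference of 1.39, while Hoxd8, next to it, was at 1.88, 0.864 and 0.116 FPKM in the adjacent libraries and 1.58, 0.287 and 0.813 in the tumours and was not called. Hoxa13, the Hoxa gene of the same paralogue group as Hoxd13, was at 18.7, 21.3 and 24.2 FPKM in the adjacent libraries and 17.3, 13 and 21.1 in the tumours and was not called (log2 difference -0.32). Hoxb13 was at 30.1, 39.5 and 103 FPKM in the adjacent libraries and 41.6, 47 and 53.4 in the tumours and was not called either (log2 difference -0.08). Without any one library 5 Hox genes were called higher. Between the ΔIEC tissues levels did not overlap for the named Hoxd genes. Hoxa4, Hoxa7 and Hoxb9 were called lower (from -0.80 to -0.74), but without single libraries 0 or 1 of them was called, and after rescaling none was. Of the 19 Hox genes tested 26.3% were called higher and 15.8% lower, beside 13.9% and 15.5% of all genes.

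**Figure D4:**
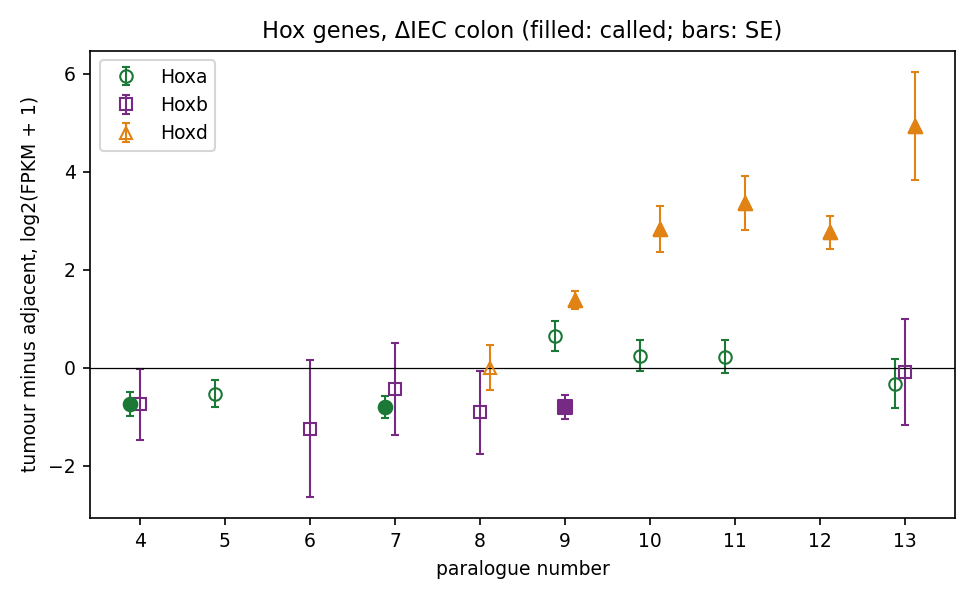
Difference between ΔIEC tumour and ΔIEC adjacent colon (log2(FPKM + 1), bars are SE) of the 19 Hox genes tested, by paralogue number, with circles for Hoxa, squares for Hoxb and triangles for Hoxd; filled marks are called. The triangles of Hoxd9 to Hoxd13 lie between 1.39 and 4.93, above every Hoxa and Hoxb mark.

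Keratins and junction proteins changed singly. Krt7, a keratin of simple ductal epithelium, was at 60.1, 61.1 and 49.5 FPKM in adjacent 1 to 3 and at 239, 259 and 178 in tumour 1 to 3 (log2 difference 1.96, SE 0.16, limma adjusted p = 0.000339), and Krt23 was at 6.92, 2.98 and 4.39 FPKM in the adjacent libraries and 72.5, 54.5 and 21.6 in the tumours (log2 difference 3.03). Krt20, of mature colonocytes, fell from 687, 359.8 and 415 to 227, 102 and 259 FPKM (log2 difference -1.36, adjusted p = 0.0392), while Krt8, Krt18 and Krt19 were not called (-0.41, 0.43 and -0.15). Krt20 lost its call without adjacent 1, adjacent 3, tumour 1 or tumour 2 (limma adjusted p from 0.0659 to 0.133). Of 12 squamous keratinocyte genes tested 2 were called higher, Krt13 and Krt14, 16.7% beside 13.9% of all genes. In this list 11 were above 0 (median 1.15), and 3 were called higher after rescaling. Krt13 was at 0.541, 0.761 and 0.424 FPKM in the adjacent libraries and 18.7, 4.78 and 11 in the tumours (log2 difference 2.82, adjusted p = 0.0126) and Krt14 at 0.520, 0.278 and 0.337 FPKM in the adjacent libraries and 12.5, 8.86 and 6.6 in the tumours (log2 difference 2.87, adjusted p = 0.0449); the defining regulator of squamous epithelium, Trp63, was below the level tested. Krt13 lost its call without tumour 1 (limma adjusted p = 0.053). Krt14 lost its call without adjacent 1, adjacent 2, adjacent 3, tumour 1, tumour 2 or tumour 3 (limma adjusted p from 0.0676 to 0.129). Among 19 junction genes, Cldn15, a claudin that forms sodium pores, fell from 86.5, 86.1 and 39.8 to 1.57, 3.94 and 6.43 FPKM (log2 difference -3.9, SE 0.50, limma adjusted p = 0.00126), Cldn4 rose as given above, and Cgn and Cldn3 fell by 0.65 and 0.68 log2 units. The libraries of the tissues did not overlap for Krt7, Krt13, Krt14, Krt20, Krt23 or Cldn15. Cldn3 lost its call without adjacent 1, adjacent 3, tumour 1 or tumour 2 (limma adjusted p from 0.0842 to 0.149). Of the junction genes 5.3% were called higher and 15.8% lower, beside 13.9% and 15.5% of all genes. The count lower was 5 without adjacent 2, and rescaling gave 3 higher and 1 lower.

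Genes of DNA replication and mitosis were all above 0, but only 3 of 22 were called (13.6%, against 13.9% of all genes; median 0.48). Rrm2, of nucleotide reduction, was at 7.94, 20.9 and 12.9 FPKM in adjacent 1 to 3 and at 25.7, 30.6 and 31.7 in tumour 1 to 3 (log2 difference 1.11, SE 0.29, limma adjusted p = 0.0168). Pcna, the sliding clamp of DNA polymerase, was at 44.2, 76 and 57.9 FPKM in the adjacent libraries and 99, 87.7 and 87.9 in the tumours (log2 difference 0.65, adjusted p = 0.0286). Mcm2, of the replicative helicase, was at 9.8, 18.9 and 14.8 FPKM in the adjacent libraries and 19.3, 25.1 and 24.7 in the tumours (log2 difference 0.67, adjusted p = 0.0359). No library of one tissue reached the range of the other for the 3 genes, though adjacent 2 came near the tumours. Pcna lost its call without adjacent 1, adjacent 3, tumour 1 or tumour 2 (limma adjusted p from 0.0586 to 0.0941). Mcm2 lost its call without adjacent 1, adjacent 3, tumour 2 or tumour 3 (limma adjusted p from 0.0636 to 0.105). Mki67, the proliferation antigen, was at 38.4, 60.3 and 38.5 FPKM in the adjacent libraries and 59.9, 53.8 and 67.4 in the tumours and was not called (adjusted p = 0.179). The count turned on the adjacent libraries and the scaling: it was 14 without adjacent 2, 1 without adjacent 1 or adjacent 3 and 12 after protein-coding rescaling. The mean level of the list was 3.81, 4.66 and 4.09 log2 units in adjacent 1 to 3 and 4.64, 4.65 and 4.83 in the tumours. Of 14 p53 targets and cell cycle inhibitors 3 were called higher and 1 lower, beside 13.9% and 15.5% of all genes, and rescaling gave 5 higher and 1 lower. Cdkn2a, which encodes p16 and p19, was at 0, 0.207 and 0.0643 FPKM in adjacent 1 to 3 and at 2.88, 10.8 and 2.35 in tumour 1 to 3 (log2 difference 2.3, adjusted p = 0.00836), and Cdkn1b, p27, fell from 31.5, 22.7 and 28.6 to 14.2, 13.3 and 17.1 FPKM (log2 difference -0.84, adjusted p = 0.00209). The ranges were separate for either gene. Cdkn1a, p21, the standard p53 target, was not called (-0.65). The count lower was 2 without adjacent 2.

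Of 14 TRAPP subunits tested 1 was called higher and 2 lower (median -0.04). These are shares of 7.1% and 14.3%, beside 13.9% and 15.5% of all genes. Trappc10, of the TRAPPII complex, fell from 35.2, 27.2 and 30.4 to 16.3, 16.4 and 23.7 FPKM (log2 difference -0.70, SE 0.14, limma adjusted p = 0.00641). Trappc9, its partner, was at 15.7, 12.2 and 13.1 FPKM in the adjacent libraries and 8.6, 10.2 and 10.4 in the tumours (log2 difference -0.45) and Trappc2, a core subunit, at 3.0, 2.56 and 2.52 FPKM in the adjacent libraries and 5.22, 3.94 and 3.55 in the tumours (log2 difference 0.49). Trappc9 lost its call without adjacent 1, tumour 1 or tumour 2 (limma adjusted p from 0.0508 to 0.096). Trappc2 lost its call without adjacent 1, adjacent 2, adjacent 3, tumour 1 or tumour 2 (limma adjusted p from 0.0609 to 0.156). Tumour and adjacent libraries were fully separated for the 3 subunits. After rescaling 4 were called higher and 1 lower. Genes of the unfolded protein response, which relieves stress in the endoplasmic reticulum, were below 0 for 26 of 26 tested, and 10 were called lower (median -0.37). That is 38.5% lower, beside 15.5% of all genes. Ern2, the IRE1 sensor of mucus-secreting cells, was at 51.7, 42.4 and 32.1 FPKM in the adjacent libraries and 6.4, 12.6 and 16.6 in the tumours (log2 difference -1.8, adjusted p = 0.00702), and Edem1, which clears misfolded glycoproteins, at 51, 57 and 50.4 FPKM in the adjacent libraries and 25.1, 27.9 and 35.8 in the tumours (log2 difference -0.83). The chaperone Hspa5 was not called (-0.08). Ern2 moved with the goblet cell genes above; their part in it was not tested. The count was 3 without tumour 1 or tumour 2 and 4 after rescaling, when the median was -0.09.

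Genes of the circadian clock and its outputs were called lower in 6 of 15 tested and higher in none (median -0.83). That is 40% lower, beside 15.5% of all genes. The count higher was 1 without adjacent 1 and 2 after rescaling. Dbp, a clock-driven transcription factor, was at 33.5, 12.7 and 22.3 FPKM in adjacent 1 to 3 and at 4.54, 6.63 and 7.35 in tumour 1 to 3 (log2 difference -1.66, SE 0.36, limma adjusted p = 0.00822), Nr1d1, REV-ERBα, was at 45.5, 13.9 and 17.2 FPKM in the adjacent libraries and 7.12, 6.86 and 7.53 in the tumours (log2 difference -1.51) and Tef at 52, 30.7 and 38.6 FPKM in the adjacent libraries and 14.4, 17.6 and 20.7 in the tumours (log2 difference -1.14). There was no overlap between tissues for the 3 genes, and adjacent 1 was the highest library. The core activators Clock and Arntl were not called (0.39 and -0.53), though Clock was called higher after rescaling. The count lower was 3 without adjacent 1, tumour 1 or tumour 2, 10 without tumour 3 and 3 after rescaling. The sources used here do not give the hour of collection. Of 13 genes of blood vessel growth and hypoxia 3 rose, Angpt2, Pgf and Apln, and 3 fell. That is 23.1% each way, beside 13.9% higher and 15.5% lower over all genes. Vegfa, the main endothelial growth factor, was at 61.1, 34.6 and 46.5 FPKM in the adjacent libraries and 18.8, 21.1 and 30.1 in the tumours (log2 difference -0.98, adjusted p = 0.0187), and Car9, a hypoxia target, at 36.4, 26.1 and 23.7 FPKM in the adjacent libraries and 9.66, 8.33 and 15.4 in the tumours (log2 difference -1.31). Vegfa lost its call without adjacent 1, tumour 1 or tumour 2 (limma adjusted p from 0.0585 to 0.0749). The count lower was 1 without adjacent 1, tumour 1 or tumour 2 and 2 after rescaling. Of 12 oncofetal and imprinted genes 1 was called higher and 2 lower, 8.3% and 16.7%, beside 13.9% and 15.5% of all genes. The counts were 2 higher without tumour 2 or after rescaling and 1 lower without adjacent 1, tumour 2 or tumour 3. Plagl1 rose from 0.800, 0.485 and 0.251 to 13.7, 5.63 and 4.32 FPKM (log2 difference 2.42, limma adjusted p = 0.00169). Meg3, a noncoding RNA, fell from 12.4, 29.4 and 14 to 6.79, 2.04 and 4.95 FPKM (log2 difference -1.81, adjusted p = 0.0102). Igf2bp2, an RNA-binding protein of fetal tissue, fell from 36.1, 18.1 and 14 to 10.2, 1.61 and 1.25 FPKM (log2 difference -2.45, adjusted p = 0.0224). Igf2bp2 lost its call without adjacent 1, tumour 2 or tumour 3 (limma adjusted p from 0.0676 to 0.0849).

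The same contrast in flox mice gives the difference between tumour and adjacent colon with Synbindin intact. The flox contrast called 6163 genes (36.3%), 16.6% higher and 19.7% lower. Both genotypes called 1873 genes higher, 79.5% of the ΔIEC list and 66.5% of the flox list, and 2228 lower, 84.9% and 66.6%. The contrasts share no library, although they share the estimate of spread, and the correlation of the differences across genes, which are not independent replicates, was 0.872. Of the ΔIEC calls 877 were not called in flox, and 839 of those had the same sign there. By limma's test of the difference between the genotypes no gene passed (0 of 16970, 0%), and the unadjusted p was below 0.05 for 448. By list, the counts stood close for Wnt genes (19 higher in ΔIEC, 21 in flox), neutrophil genes (13 and 14), Paneth-like genes (11 and 11), goblet cell genes (13 lower and 12 lower) and Hox genes (5 higher in both). They stood further apart for fibroblast and matrix genes (4 and 12 higher), endothelial genes (1 and 9 higher), squamous keratinocyte genes (2 and 8 higher), mitochondrially encoded genes (2 and 9 lower) and general epithelial genes (4 and 10 lower). No test compared these counts, and no member of any list passed the test of the difference. For Mmp7 the difference was 6.56 in ΔIEC and 4.36 in flox mice, for Saa3 5.05 and 3.06, for Mptx1 -6.97 and -4.78, and for Cyp2c55 -6.24 and -8.08; none of these pairs passed that test. Those genes were chosen here after their values were seen. The mast cell proteases Cpa3 and Mcpt4 had 2.51 and 2.15 in ΔIEC against 0.66 and 0.63 in flox mice, and Meg3 -1.81 against -0.09, and these did not pass either. Cpa3 lost its call without adjacent 1, adjacent 2, tumour 1 or tumour 2 (limma adjusted p from 0.05 to 0.0644).

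**Figure D5:**
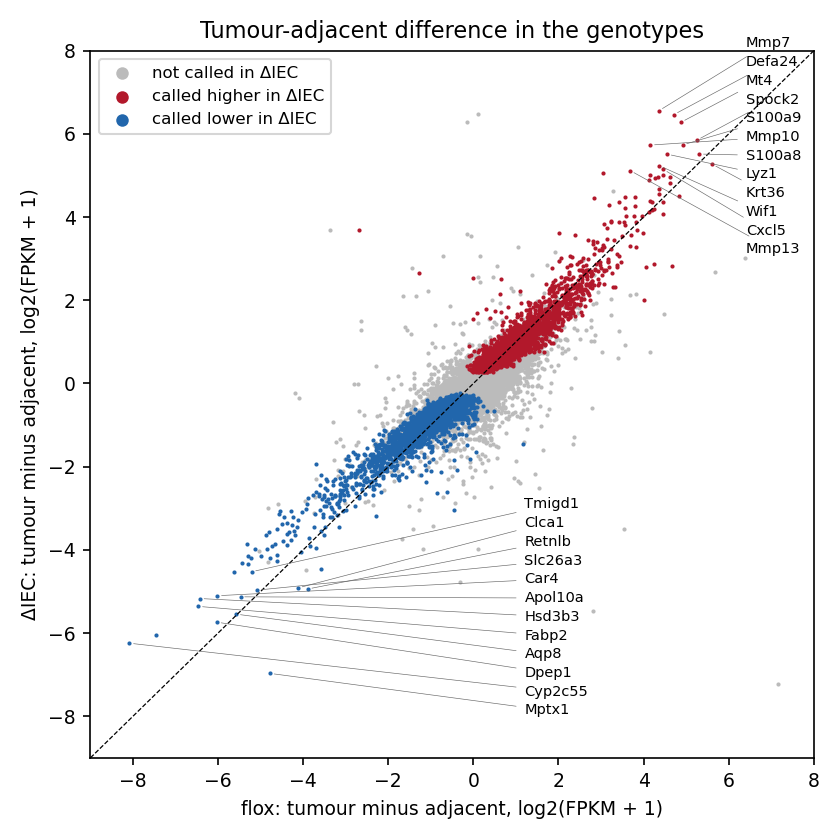
Tumour minus adjacent difference in ΔIEC mice (vertical axis) against that in flox mice (horizontal axis), both in log2(FPKM + 1), for the 16970 genes tested, coloured by the ΔIEC call, with the line of equal differences dashed. Points follow the line (correlation across genes 0.872), and Mptx1 (-6.97 against -4.78) is one of the named genes farther from it.

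Among the 5 genes with the smallest p on each side of the genotype test, most are small or predicted RNAs. Gm22362, a small nucleolar RNA, was listed at 0 in the adjacent libraries and was at 11.2, 13.2 and 11.3 FPKM in the ΔIEC tumours, whereas in flox mice it was present in 2 adjacent libraries and listed at 0 in the tumours. Including Gm22362, 3 genes were called in opposite directions in the genotypes; the others were Gm25082, a short RNA, and Gm13433, a processed pseudogene. Gm13433 lost its call without adjacent 3, tumour 1 or tumour 3 (limma adjusted p from 0.0763 to 0.0962). Gm25082 lost its call without tumour 1 (limma adjusted p = 0.0598). The protein-coding genes of this group were Atp5k, a subunit of ATP synthase (65, 71.1 and 63.7 FPKM in the adjacent libraries and 66.7, 45.3 and 51.1 in the tumours, ΔIEC difference -0.31, flox -1.27), the ATPase Ola1 (0.23 and -0.32) and the topoisomerase Top3b (-0.05 and 1.49). None of them was called by that test.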

How the data were processed

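RNA was extracted from dissected tumours and adjacent colon and made into strand-specific libraries, per the labels' protocols. STAR 2.5, Cuffnorm and GRCm38 are named in the submitters' processing notes. The deposited table holds log2 FPKM per transcript, as the authors made it, and an added 1 before the log was assumed. The log was undone and the FPKM of all transcripts of a GENCODE M21 gene were added up (118004 of 123062 transcripts matched), and log2(FPKM + 1) was tested with limma 3.58.1 in R 4.3.3. The fit took all 12 libraries as 4 group means with trended, robust moderation, over 16970 genes at FPKM 1 or more in at least 3 libraries. No depth or count could be recovered, so precision rests on the 3 libraries per group. The script was tested on simulated data.

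Named genes were Trappc4, the 12 largest called rises and falls without overlap and with a mean of at least 5 FPKM in the higher group (predicted and antigen receptor genes left out), up to 4 called members of each list with the largest differences, called members that moved against their list, and the 5 smallest p on each side of the genotype test. Lists without a call give the member with the smallest p. Other list members given here, mostly by their difference alone, were chosen after their values were seen. The members and the 47 lists were chosen with earlier results of these data known. Alternatives changed the pseudocount, filter, scaling, moderation, samples and block; rescaling to a common protein-coding total was among them. Promoter letters came from RefSeq (GRCm38.p6). Some genes that the naming rule chose are not reported here.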

Additional observations from a re-analysis of the deposited data

How the results depend on the processing

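The genes called higher and lower numbered 2357 and 2624, and stayed within 1.5 times under quantile or median scaling, a filter at FPKM 5 or none, a pseudocount of 0.1, plain moderation and both blocks. Leaving out single ΔIEC libraries gave 1364 to 2354 higher and 1546 to 2724 lower. Fitting only the 6 libraries compared gave 1136 and 1428, and keeping only the codes shared by both tissues gave 843 and 854; these fits have fewer samples. Asking for a difference above 1 log2 unit gave 98 and 54. Protein-coding rescaling gave 4320 and 1496, and leaving immunoglobulin and small RNA genes out of that total gave 4303 and 1478 (an alternative chosen after seeing the data); the cause was not tested. After rescaling 3849 of the 4981 calls remained and 5 took the other sign. Of the 169 called named genes 123 kept their call without any one ΔIEC library and 46 lost it in at least 1 such fit. The genotype test called 0 genes under every alternative run.

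Whether samples with the same title number pair was not settled. The correlation of their residuals was 0.19, 0.0534 and 0.17 in ΔIEC mice and 0.0493, -0.192 and 0.105 in flox mice. Adjacent and tumour samples with different numbers ran from -0.175 to 0.0543 in ΔIEC mice and from -0.189 to 0.16 in flox mice. With the replicate number as a block 1718 genes were higher and 1990 lower, and with the sample code as a block 2397 and 2663. Unknown depth limits the low genes most, since 1 FPKM may rest on few reads.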

Other observations

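Outside the gene lists, and chosen after their values were seen, several secreted proteins were among the larger rises. Tnfrsf11b, the decoy receptor osteoprotegerin, was at 0.946, 0.643 and 0.725 FPKM in the adjacent libraries and 136, 62.3 and 18.5 in the tumours (log2 difference 4.97, adjusted p = 0.00105). Mgp, an inhibitor of calcification made by matrix cells, was at 2.08, 24.9 and 27.3 FPKM in the adjacent libraries and 938, 221 and 124 in the tumours (log2 difference 4.5, adjusted p = 0.0103). Lrg1, an acute phase glycoprotein, was at 0.521, 2.15 and 2.46 FPKM in the adjacent libraries and 21, 18.1 and 73.8 in the tumours (log2 difference 3.63, adjusted p = 0.00181). Il1rl1, the receptor for Il33, was at 0.868, 8.62 and 4.25 FPKM in the adjacent libraries and 72.9, 102 and 92.7 in the tumours (log2 difference 4.3, adjusted p = 0.00293), alongside the rise of its ligand. The retinoid enzymes Aldh1a3 and Rdh10 rose by 4.07 and 2.02 log2 units, and Stra6, a retinol transporter, by 4.36. Socs3, a feedback inhibitor of STAT3 signalling, rose by 2.09, and the transcription factors Tead2 and Tbx3 by 2.39 and 2.55.

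Among the larger falls outside the lists were metabolic enzymes also known from liver. Pck1, of gluconeogenesis, was at 93.4, 40 and 44 FPKM in the adjacent libraries and 0.192, 3.1 and 4.0 in the tumours (log2 difference -4.27, adjusted p = 0.00136). Hao2, a peroxisomal oxidase, was at 129, 57.4 and 77.8 FPKM in the adjacent libraries and 0.638, 4.46 and 6.99 in the tumours (log2 difference -4.34, adjusted p = 0.00183). Ethe1, which detoxifies sulfide in mitochondria, and Selenbp1, a methanethiol oxidase, fell by 2.71 and 4.32 log2 units. Nlrp6, an inflammasome sensor of gut epithelium, was at 82.4, 42.3 and 70.2 FPKM in the adjacent libraries and 2.94, 8.72 and 15.3 in the tumours (log2 difference -2.9, adjusted p = 0.00263). Btnl1, a butyrophilin-like protein that maintains intraepithelial T cells in the gut, was at 55.3, 12.8 and 18.6 FPKM in the adjacent libraries and 0.0852, 0.147 and 2.07 in the tumours (log2 difference -3.99, adjusted p = 0.00296). B4galnt2, which adds a blood group sugar to colon mucins, fell by 3.99 log2 units (adjusted p = 0.00164).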
